A study of Mus musculus with 5 samples.

Results

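The replication-dependent histone genes are described here in the mouse caudate putamen after a small stroke. They were taken as every gene of the deposited table whose symbol starts with Hist1h, Hist2h, Hist3h or Hist4h, which gave 66 of 19221 genes. By the class in their symbols they are 5 linker histones H1, 19 H2A, 19 H2B, 11 H3 and 12 H4 genes. The number after Hist names the chromosomal group: 52 belong to group 1, all on chromosome 13, 10 to group 2 on chromosome 3, 3 to group 3 on chromosome 11 and 1 to group 4 on chromosome 6. GENCODE M21, on the mouse build GRCm38, annotates 63 as protein coding and 3 as pseudogenes (Hist1h2aj, Hist1h2al and Hist3h2bb-ps).

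The tissue came from male C57BL/6 mice aged 9 weeks. Rose bengal, a dye that light activates, was injected into the abdomen at 100 mg/kg, and 5 min later a 532 nm laser at 30 mW was shone for 2 min through a fibre placed in the right caudate putamen at a depth of 3 mm, which closes local vessels by photothrombosis. Each stroke library held the lesion tissue of 6 mice combined, taken 4 hours, 1 day, 3 days or 10 days later. The sham library combined punches from the left side of the mice, where the laser was applied before the dye. The sources used here do not give how many mice or which times it covers. Every group is thus 1 library, so no difference below carries a replicate error or a test, and all values describe these 5 libraries.

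Replication-dependent histone genes supply the proteins that package newly made DNA. H2A, H2B, H3 and H4 form the nucleosome core, and H1 binds the DNA between nucleosomes. Most of their transcripts carry no poly(A) tail: they are trimmed just after a short hairpin, the stem-loop, which the stem-loop binding protein SLBP recognises, and they are abundant while a cell copies its DNA. Adult neurons do not divide, whereas glia and blood-derived cells can. A total RNA kit, which does not depend on a poly(A) tail, was used for the libraries.

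The 3′ stem-loop is shown first because it is what sets these messages apart. A script searched the annotated transcripts for a 6-base stem starting with GG, a 4-base loop and the complementary stem, reading the transcript strand only. It was found in 43 of the 66 genes. In the sequences below, written 5′ to 3′ as DNA, capitals mark the stem and lower case the loop.
Hist1h2ap, chr13:21833029-21833044, minus strand: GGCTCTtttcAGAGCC
Hist1h2bk, chr13:22036300-22036315, plus strand: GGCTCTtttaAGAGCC
Hist1h4h, chr13:23531458-23531473, plus strand: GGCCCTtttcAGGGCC
Hist1h4b, chr13:23757366-23757381, plus strand: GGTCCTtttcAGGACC
The first form was the most common, with 26 genes of classes H1, H2A, H2B and H3. All 11 H4 genes with a stem-loop had another stem: the form of Hist1h4h was found in 6, and that of Hist1h4b in 2. The form of Hist1h2bk was found in 4 genes, 2 of class H2B and 2 of class H3. Among other protein-coding transcripts of the annotation, 4745 of 101581 (4.67%) held a match anywhere. A match with at most 100 bases after it was found in 23 of the 66 genes, and in 211 (0.21%) of those other transcripts within their last 100 bases.

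The second set of sequences shows how an H2A and an H2B gene can share 1 short stretch of DNA. A script found 13 pairs of an H2A and an H2B gene lying head to head, 11 of these pairs in group 1, with 175 to 301 bases between the annotated starts. Printed here are the stretch between Hist1h2ae, which is read leftwards, and Hist1h2bg, read rightwards, and the stretch between Hist1h2ap and Hist1h2br, placed the same way. Both are given on the plus strand from RefSeq, build GRCm38.p6, with 3 motifs in capitals on either strand: the octamer ATTTGCAT, CCAAT (which reads ATTGG on the other strand) and TATAAA.
Hist1h2ae and Hist1h2bg, chr13:23571221-23571395: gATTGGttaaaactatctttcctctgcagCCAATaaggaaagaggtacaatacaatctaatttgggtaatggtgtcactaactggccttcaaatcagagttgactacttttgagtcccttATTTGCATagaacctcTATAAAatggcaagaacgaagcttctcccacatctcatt
Hist1h2ap and Hist1h2br, chr13:21833508-21833742: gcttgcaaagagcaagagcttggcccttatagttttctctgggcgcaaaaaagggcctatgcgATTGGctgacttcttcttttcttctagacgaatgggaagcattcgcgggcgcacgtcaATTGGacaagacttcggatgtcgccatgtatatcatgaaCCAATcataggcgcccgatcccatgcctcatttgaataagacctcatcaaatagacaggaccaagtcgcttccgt
The first stretch holds all 3 motifs and the second holds CCAAT alone. Of the 66 genes, 58 had their symbol in the RefSeq promoter table, which runs from 250 bases before to 50 bases after each gene start, and for 56 of these the promoter lay within 500 bases of the gene's own annotated start. The octamer was in 21.4% of these 56 promoters against 1.7% of all 32851 promoters of the table, CCAAT in 83.9% against 37.4%, and TATAAA in 57.1% against 13.6%. The octamer was in 6 of 16 H2A and 6 of 16 H2B promoters and in 0 of the H1, H3 and H4 promoters; CCAAT was in all 16 H2A, all 16 H2B, all 9 H3 and all 4 H1 promoters, and in 2 of 11 H4 promoters. Because head-to-head genes share their promoter stretch, these counts are not of independent sequences.

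Expression is given as deposited, in RPKM: reads scaled by the length of the gene model and by the library's total reads. A fold is the log2 of (RPKM + 1) in a stroke library over (RPKM + 1) in sham, and "higher" or "lower" in a count means at least 2-fold on that scale. Of the 66 genes, 58 reached 1 RPKM in at least 1 library and 45 did so in all 5. Another 5 (Hist1h1e, Hist1h2bm, Hist1h3a, Hist1h3g and Hist1h3h) reached it only on day 3, so these had to be highest there, and 1 reached it in another single library only. The remaining 8 (3 H1, 2 H3, 1 H2A and 2 H4) stayed under 1 RPKM in every library, with maxima of 0.248 to 0.828 RPKM, and are only counted. The steps of the RPKM values gave back 42260000 to 48010000 reads per library, and whole reads for all 66 genes. Intervals in brackets are 95% exact intervals for the ratio of 2 libraries from those reads, with the reads halved in case both mates of a pair were counted. They cover counting error only.

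The day 3 library stood out. Of the 58 genes, 17 were at least 2-fold higher on day 3 than in sham (background over the 12783 genes at 1 RPKM or more: 9.04%), and 0 were 2-fold lower (0.618%). The median fold was 0.77 on the log2 scale, against 0.12 over all 12783 genes. Of the 58 folds 57 were above 0, against 7533 of the 12783, the exception being the pseudogene Hist3h2bb-ps. After median-of-ratios scaling, which sets the typical gene equal between libraries and left 56 genes at 1 RPKM, 55 of 56 were above 0. Day 3 was the highest library for 47 of the 58 genes (81.0%, against 26.0% of all genes), the 5 genes noted above among them. The summed RPKM of all 66 genes was 589 in sham, 718 at 4 hours, 518 on day 1, 1672 on day 3 and 759 on day 10. At the edge of the 2-fold limit on day 3, Hist1h2bp lay just inside with a fold of 1.02 and Hist1h2bc just outside with 0.97.

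The other libraries differed less from sham. At 4 hours 1 of 58 genes was 2-fold higher (background 2.2%) and 0 were lower (1.09%), with a median fold of 0.04 against 0.28 over all genes; after median-of-ratios scaling that histone median was -0.22 and no gene stayed 2-fold higher. On day 1, 0 genes were 2-fold higher (3.33%) and 3 were lower (1.35%), with a median of -0.37 against -0.02 over all genes. On day 10, 0 were higher (4.2%) and 0 lower (0.172%), with a median of 0.34 against 0.07. Day 1 was the lowest library for 43 of the 58 genes (74.1%, against 33.6% of all genes), but this depended on the scaling: after median-of-ratios scaling day 1 was lowest for 23 genes and 4 hours for another 23, while day 3 was still highest for 47.

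From library to library, 0 of 58 genes were 2-fold higher on day 1 than at 4 hours (2.7%) and 1, Hist1h1c, was lower (5.7%). From day 1 to day 3, 30 were higher (7.46%) and 0 lower (0.939%), with a median step of 1.05. From day 3 to day 10, 0 were higher (0.626%) and 15 lower (2.77%). These steps share libraries with the comparisons against sham and are not separate evidence.

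**Figure D1:**
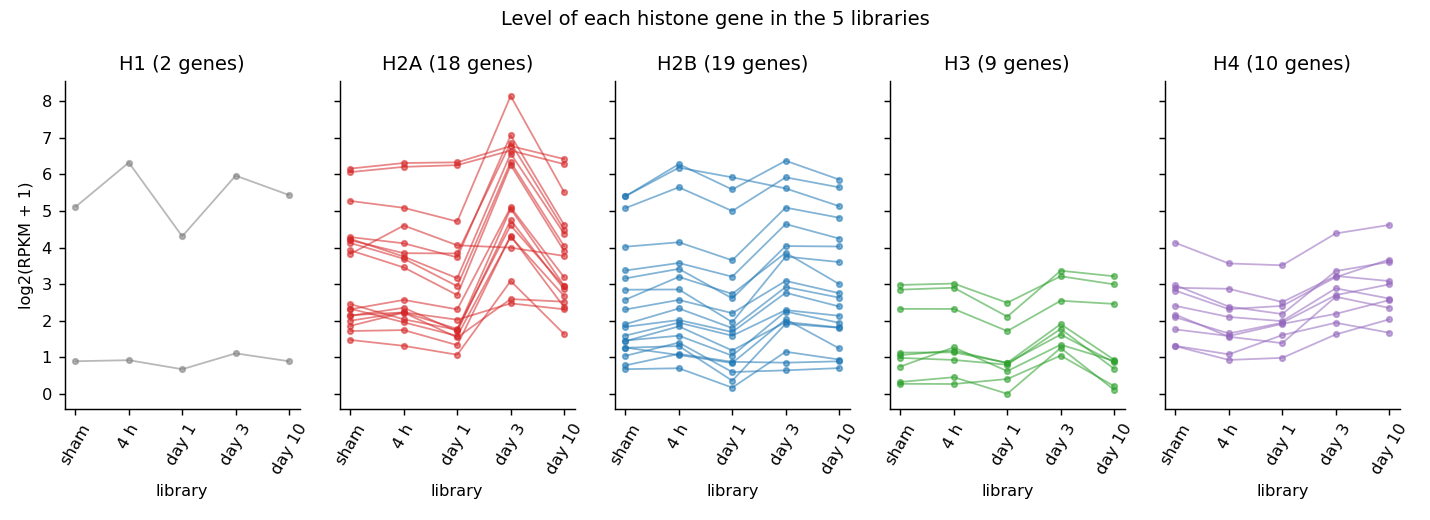
Level of each of the 58 histone genes that reached 1 RPKM, as log2(RPKM + 1) on the vertical axis, in the 5 libraries on the horizontal axis, with 1 panel per histone class and 1 line per gene. Most H2A lines have a sharp peak on day 3, whereas H2B, H3 and H4 lines are flatter.

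H2A genes of group 1 carried the largest share of the day 3 level. These genes encode the major forms of core histone H2A. Of the 14 Hist1h2a genes, 13 were at least 2-fold higher on day 3 (background 9.04%), and the median fold was 2.53. Their summed RPKM was 148 in sham, 123 at 4 hours, 88.4 on day 1, 946 on day 3 and 183 on day 10, which is 6.39 times sham on day 3 and 1.24 times on day 10. They held 25.1% of the RPKM of all 66 genes in sham and 56.6% on day 3. Without them the other 52 genes summed to 441 RPKM in sham and 726 on day 3, a ratio of 1.65.

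Hist1h2ap (chr13:21833026-21833507, minus strand, a single exon of 482 bases) had the highest level of any histone gene here. Its RPKM was 37.7 in sham, 33.0 at 4 hours, 25.2 on day 1, 282 on day 3 and 44.8 on day 10. The day 3 value was 7.49 times sham (6.75 to 8.33), a log2 fold of 2.87. Hist1h2ao (chr13:21810465-21810944, plus strand) shares 93.5% of its sequence stretches with other genes, Hist1h2ap first among them, and had 18.5, 16.3, 12.3, 133 and 23.6 RPKM in the same order. Its day 3 ratio was 7.20 (6.21 to 8.40). In both, day 3 was the only library far above the others. As deposited, day 1 was the lowest in both, but whether day 1 or 4 hours is lowest depends on the scaling.

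Hist1h2ai had the largest ratio: its RPKM was 3.97 in sham, 4.93 at 4 hours, 3.96 on day 1, 33.3 on day 3 and 8.11 on day 10, a day 3 ratio of 8.40 (5.89 to 12.3). Hist1h2ag had 17.4, 13.4, 13.3, 116 and 21.4 RPKM and a day 3 log2 fold of 2.67. Hist1h2ad had 3.39, 4.11, 2.26, 25.9 and 6.26 RPKM and a fold of 2.62. On day 10 these genes were far below their day 3 level; the day 10 ratios to sham of Hist1h2ai and Hist1h2ad were 2.04 (1.35 to 3.14) and 1.85 (1.27 to 2.73).

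The 3 histone genes that were 2-fold lower on day 1 were also H2A genes of group 1. Hist1h2an had 14.2 RPKM in sham, 9.97 at 4 hours, 5.49 on day 1, 75.4 on day 3 and 13.99 on day 10, with a day 1 log2 fold of -1.22. Hist1h2aj, annotated as a pseudogene, had 16.4, 11.9, 6.69, 79.9 and 15.4 RPKM and a day 1 fold of -1.18. Hist1h2ah had 17.9, 12.5, 7.94, 94.1 and 19.9 RPKM and a day 1 fold of -1.08. The ratios on day 1 were 0.388 (0.274 to 0.543), 0.407 (0.291 to 0.562) and 0.445 (0.333 to 0.588). After either scaling 2 genes rather than 3 passed the limit on day 1, and by the GFOLD value in the authors' deposited table (a fold shrunk for genes with few reads) 0 did.

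The remaining Hist1h2a gene under the limit on day 3 was the processed pseudogene Hist1h2al, which lies apart on chromosome 13 at 51202727 to 51203065, while the named genes above lie between 21716422 and 23574952. Its day 3 fold was 0.73, from 2.63 RPKM in sham to 5.03 on day 3. H2A genes outside group 1 also differed less. Hist2h2aa1 and Hist2h2aa2 on chromosome 3, a near-identical couple for which every stretch is shared, were the highest H2A genes in sham. Hist2h2aa1 had 65.9, 72.9, 75.3, 99.6 and 76.8 RPKM, and Hist2h2aa2 had 70.5, 78.4, 79.5, 109 and 84.7. Their day 3 log2 folds were 0.59 and 0.62, and their 4 hour folds of 0.14 and 0.15 became -0.22 for each after median-of-ratios scaling. Hist3h2a on chromosome 11 was highest at 4 hours instead, with 13.2, 23.3, 15.7, 14.96 and 12.7 RPKM. Over the 4 H2A genes outside group 1 that reached 1 RPKM, the median day 3 fold was 0.53 and 0 passed the limit, which with 4 genes is near the background of 9.04%.

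**Figure D2:**
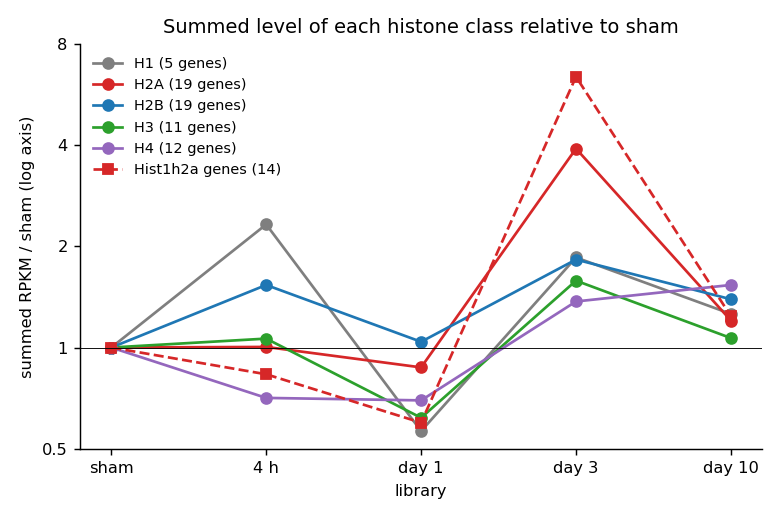
Summed RPKM of each histone class relative to its own sham sum (log axis) in the 5 libraries; the dashed line is the 14 Hist1h2a genes, which are also part of the H2A line. The Hist1h2a sum is 6.39 times sham on day 3. The whole classes, which pool all groups, stand at 3.91 for H2A, 1.83 for H2B, 1.58 for H3 and 1.37 for H4.

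H2B genes, whose protein pairs with H2A in the nucleosome, differed less on day 3 than H2A genes. Of 19, 4 were at least 2-fold higher on day 3 (background 9.04%) and the median fold was 0.79, but 16 of 19 had their highest level in that library. The count was 2 after median-of-ratios scaling and 2 by the GFOLD value in the authors' deposited table; the H2A count was 13 by each. The summed H2B RPKM was 179 in sham, 275 at 4 hours, 186 on day 1, 327 on day 3 and 249 on day 10.

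Hist1h2bj had 4.95, 8.18, 5.64, 13.5 and 7.02 RPKM in sham, at 4 hours and on days 1, 3 and 10, with a day 3 log2 fold of 1.28. Hist1h2bk had 9.35, 10.9, 8.21, 24.0 and 18.0 RPKM and a fold of 1.27. These were the highest folds among H2B genes on day 3. Hist1h2bc, the most abundant H2B gene on day 3, had 41.3, 76.7, 47.1, 81.9 and 57.1 RPKM: its 4 hour level (1.86 times sham, 1.73 to 2.00) was close to its day 3 level (1.98 times, 1.84 to 2.14). Hist3h2ba, on chromosome 11, had 41.4, 71.8, 59.5, 48.1 and 34.1 RPKM, so that as deposited its highest library was 4 hours (1.74 times sham, 1.56 to 1.93) and its lowest was day 10. The values of both genes depend on the scaling. Median-of-ratios scaling lowers 4 hour values by 0.37 and day 3 values by 0.14 on the log2 scale, and raises day 1 values by 0.11. After it the summed group 3 genes, Hist3h2ba among them, were 1.34 times sham at 4 hours and 1.47 times on day 1.

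Some H2B genes stayed near their day 3 level on day 10. Hist1h2bf had 7.92, 9.68, 5.10, 15.5 and 15.3 RPKM, and Hist1h2bl had 6.19, 6.23, 2.89, 12.5 and 11.2. Both were nearly as high on day 10 as on day 3. Hist1h2ba, a form described from testis, stood at a low level of 1.39, 1.47, 0.281, 2.77 and 2.50 RPKM, and its day 3 ratio of 1.99 has an interval (0.948 to 4.41) that includes 1. The pseudogene Hist3h2bb-ps had 1.05, 1.64, 0.511, 0.560 and 0.627 RPKM, also with intervals that include 1 in every comparison.

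The H2A and H2B genes of the head-to-head pairs could be set side by side, a comparison chosen after their values were seen. In all 11 pairs of group 1 the H2A gene had the larger day 3 fold. The lowest H2A fold among them was 1.61 (Hist1h2ac) and the highest H2B fold was 1.28 (Hist1h2bj). Any other matching of these genes would give the same count, so the pairing adds nothing to the difference between the classes. In 2 of the pairs (Hist1h2ac with Hist1h2bc and Hist1h2ae with Hist1h2bg) both genes share under 50% of their sequence stretches with other genes, and the differences there were 0.64, the smallest of the 11, and 1.13. The median log2 fold was 2.61 for the H2A genes and 0.93 for the H2B genes, and the difference within a pair ran from 0.64 to 1.99. As plain ratios to sham, the H2A genes ran from 4.21 to 8.40 and the H2B genes from 1.82 to 2.73, ranges that do not overlap. The 11 pairs are not independent observations, because near-identical copies can hold reads of one another. Hist1h2bq and Hist1h2br, for example, share 97.3% and 88.7% of their stretches, each with the other as first partner. Hist1h2ap and Hist1h2br, whose shared stretch is printed above, had ratios of 7.49 and 2.26, with Hist1h2br going from 2.56 to 5.79 RPKM. Hist1h2ae and Hist1h2bg had ratios of 4.64 and 1.82, from 4.02 to 18.7 and from 32.8 to 59.5 RPKM. In this second pair the H2B gene was the more abundant in both libraries, although its fold was the smaller. At 4 hours the medians over the 11 pairs were -0.35 for H2A and 0.20 for H2B, on day 1 -0.56 and -0.17, and on day 10 0.29 and 0.57.

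**Figure D3:**
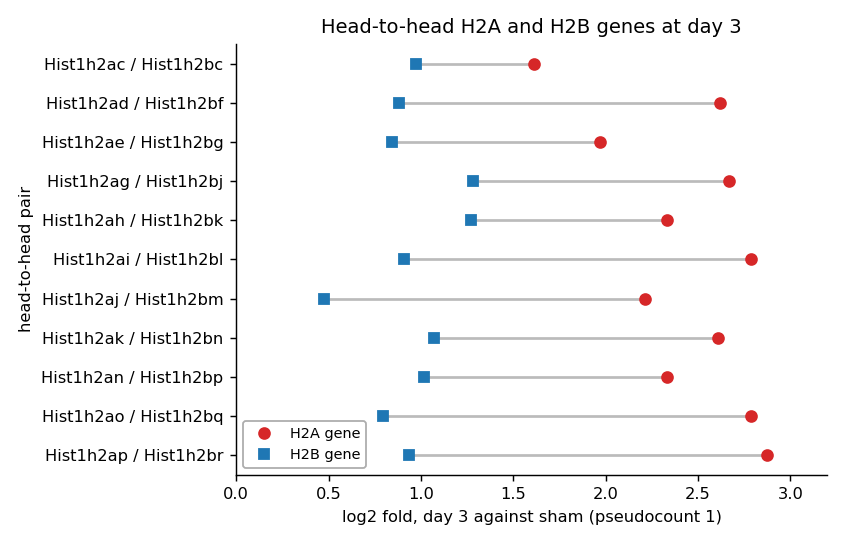
Day 3 against sham as log2 fold of RPKM + 1 (horizontal axis) for the 11 head-to-head pairs of group 1 (rows); the circle is the H2A gene and the square the H2B gene. In each pair the H2A gene lies to the right, by 0.64 to 1.99. Any other matching of these genes would put it there too, because the folds of the 2 classes do not overlap here.

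H3 and H4 genes, which form the central tetramer of the nucleosome, had lower summed levels than H2A and H2B in every library. The ratios of these sums from sham to day 3, which pool all groups, were also smaller. Of 9 H3 genes that reached 1 RPKM, 0 were 2-fold higher or lower at any time against sham. For so few genes this is near the background (9.04% higher on day 3). All 9 were highest on day 3 (26.0% of all genes), although 3 of them (Hist1h3a, Hist1h3g and Hist1h3h) entered the count through that library alone. The median day 3 fold of the 9 was 0.60. The added 1 RPKM weighs on this class, whose median sham level was 1.08 RPKM. As plain day 3 ratios, Hist1h3a had 5.10 (1.27 to 34.6), Hist1h3b 2.32 (1.26 to 4.44) and Hist1h3d 2.27 (1.28 to 4.14). Hist1h3i and the Hist2h3 genes stayed under 2. Summed H3 RPKM was 22.1 in sham, 23.5 at 4 hours, 13.6 on day 1, 34.9 on day 3 and 23.6 on day 10. Hist2h3b, the H3 gene with the highest single value, on day 3, had 6.20, 6.47, 3.32, 9.31 and 8.28 RPKM. Hist1h3g had 0.252, 0.369, 0, 1.38 and 0.0786 RPKM, or 6, 9, 0, 31 and 2 reads, so that its day 3 ratio of 5.49 (1.56 to 29.5) rests on few reads and the pseudocount holds its log2 fold to 0.93. Hist1h3h had 0.975, 0.900, 0.735, 2.42 and 0.608 RPKM, with a ratio of 2.48 (1.09 to 6.15) on day 3. Hist1h3i had 1.08, 1.27, 0.788, 2.07 and 0.811 RPKM, and its day 3 interval (0.837 to 4.64) includes 1. Day 3 was the highest library in all 3.

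H4 genes showed another order: 6 of the 10 that reached 1 RPKM were highest on day 10 (11.7% of all genes) and 4 on day 3 (26.0%). Their summed RPKM was 52.5 in sham, 37.1 at 4 hours, 36.5 on day 1, 71.9 on day 3 and 80.5 on day 10. The ratio to sham was 0.708 at 4 hours, 0.696 on day 1, 1.37 on day 3 and 1.54 on day 10; after median-of-ratios scaling these were 0.547, 0.749, 1.24 and 1.38, in the same directions. All 10 genes were below sham at 4 hours and above it on days 3 and 10. Of all 12783 genes, 9981 were above sham at 4 hours, 7533 on day 3 and 7787 on day 10. Of the 10 H4 genes 0 passed the 2-fold limit, which for so few genes is near the background (9.04% higher on day 3). On day 3 the counting interval of the ratio, from halved reads, excluded 1 for Hist1h4a alone (1.68, 1.11 to 2.57). Reads that were not halved would give narrower intervals, and whether both mates were counted is not known here. Several intervals at 4 hours and on day 10 also included 1, so the order of days 3 and 10 in single genes is uncertain.

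Hist1h4h, the most abundant H4 gene, had 16.5 RPKM in sham, 10.8 at 4 hours, 10.4 on day 1, 19.9 on day 3 and 23.5 on day 10. Its ratio was 0.657 (0.516 to 0.836) at 4 hours, 1.21 (0.979 to 1.49) on day 3 and 1.43 (1.18 to 1.74) on day 10. Hist1h4a had 3.26, 2.14, 2.84, 5.49 and 6.96 RPKM, and its day 10 log2 fold of 0.90 was the nearest to the limit at that time. Hist1h4k had 6.06, 3.98, 4.29, 8.12 and 11.8 RPKM. In these 3 genes day 10 was the highest library.

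Hist1h4b had 6.84, 4.22, 3.53, 9.24 and 11.2 RPKM, also with day 10 highest. Hist1h4m had 3.49, 1.95, 1.61, 5.30 and 4.09 RPKM, and Hist1h4f had 1.48, 1.11, 2.04, 2.84 and 2.18 RPKM, both with day 3 highest. The ratios of Hist1h4f have intervals that include 1 at every time.

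H1, the linker histone, was represented almost entirely by Hist1h1c, which encodes a linker histone also made in cells that do not divide. Hist1h1c (chr13:23738808-23740367, plus strand) had 33.5 RPKM in sham, 79.1 at 4 hours, 18.8 on day 1, 61.5 on day 3 and 42.3 on day 10. Its 4 hour ratio was 2.36 (2.21 to 2.53), a log2 fold of 1.22 and the sole 2-fold call at that time; after median-of-ratios scaling the fold was 0.85. It was lower than sham on day 1 (0.561, 0.510 to 0.617) and above it on day 3 (1.83, 1.71 to 1.97). Its levels therefore went up, down and up again over the first 3 stroke libraries. Hist1h1e, the other H1 gene that reached 1 RPKM, stood between 0.593 and 1.15.

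Reads of near-identical copies cannot be placed with certainty, and the sources used here do not say how the authors counted reads that fit several genes. Of the 66 genes, 35 share at least 50% of their 50-base exonic stretches with another annotated gene, 13 share at least 90%, and 3 share none. Values of single H2A genes with a high share, such as Hist1h2ap, Hist1h2ao and Hist1h2ai, may therefore hold reads of one another. The sum of their reads is unchanged by such trading only if each read was counted once and stayed among them. Neither is known here, and each of these genes shares stretches with 48 other annotated genes. If a read was counted in every copy it fits, the summed RPKM values above hold it more than once. Of the 24 genes that reached 1 RPKM and share less than 50%, 3 were 2-fold higher on day 3, a share near the background of 9.04% for all genes. They include both Hist1h2a genes in that range. These were named after their values were seen. Hist1h2ac (14.1% shared) had 1.78, 1.48, 1.10, 7.48 and 2.11 RPKM, a day 3 ratio of 4.21 (3.37 to 5.31). Hist1h2ae (43.2% shared) had 4.02, 2.88, 1.99, 18.7 and 5.38 RPKM, a day 3 ratio of 4.64 (3.53 to 6.20). The third gene was Hist1h2bp, with 44.1% shared and 2.74 to 6.57 RPKM from sham to day 3.

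**Figure D4:**
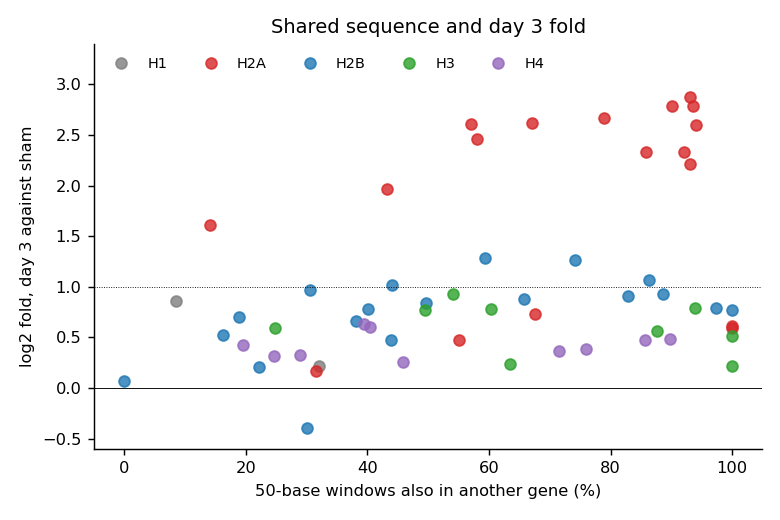
Day 3 log2 fold (vertical axis) of the 58 genes against the percent of 50-base exonic stretches each shares with another annotated gene (horizontal axis), coloured by class; the dotted line is the 2-fold limit. Except for the pseudogene Hist1h2al, the H2A genes of group 1 lie above the limit from 14.1% shared upwards, while H3 and H4 genes with shares as high lie below it.

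Other annotated genes lie over the H2A genes. An exon of another gene covers part of 25 of the 66, and 18 of the 19 H2A genes have a short model on the opposite strand that GENCODE calls a miRNA, sharing 109 to 144 bases. Of these models 17 are in the table, 14 of them over Hist1h2a genes, and 13 of the 14 were 2-fold higher on day 3. Gm44466, over Hist1h2ap, had 25.3 RPKM in sham, 21.8 at 4 hours, 16.1 on day 1, 168 on day 3 and 25.1 on day 10. Since no source used here says whether reads were counted by strand, those of a gene and of the model over it cannot be told apart.

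The gene models also differ in where they end. In 23 genes the model ended within 100 bases after the stem-loop, in 20 it ran further, as a transcript with a poly(A) tail would, and in 23 it held no stem-loop match. The genes of models ending at the stem-loop summed to 284 RPKM in sham and 911 on day 3, a ratio of 3.21. Those without a match in the model summed to 148 and 507 RPKM, a ratio of 3.43. Those whose model ran past it, among them Hist1h1c, Hist3h2a, Hist3h2ba and Hist1h2bg, summed to 157 RPKM in sham, 259 at 4 hours and 254 on day 3, ratios of 1.65 and 1.62. The classes are unevenly spread over these models, so model and class are not separate in these sums, and a longer model also lowers the RPKM of a message that ends at its stem-loop.

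Genes outside the set were described from lists. The replication-independent histone genes code for variants that are used outside DNA copying too, and most have ordinary poly(A) tails; H2afx is known to make both a tailed and a stem-loop-ended message. Of 12, all reached 1 RPKM. At 4 hours 3 were 2-fold higher (H1f0, H3f3a and H3f3b, background 2.2%, a count of 0 after median-of-ratios scaling), and 1 was on day 3. Cenpa, the centromere variant of H3, was that one, with 0.148, 0.223, 0.0921, 2.94 and 0.562 RPKM, and it reached 1 RPKM on day 3 alone. A count of 1 in 12 is near the background of 9.04%. H2afz had 78.7, 105, 127, 149 and 81.8 RPKM (day 3 fold 0.91), and H2afx, whose phosphorylated form marks DNA breaks, had 20.6, 29.6, 18.0, 38.3 and 19.9 RPKM (0.86). The median day 3 fold of this list was 0.60, against 0.77 for the 58 replication-dependent genes.

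DNA replication genes had their 2-fold differences on day 3. Of 30 listed, 21 reached 1 RPKM and 10 of these were 2-fold higher on day 3 (background 9.04%). At 4 hours (2.2%), on day 1 (3.33%) and on day 10 (4.2%) 0 were, which with 21 genes is near those shares. The median day 3 fold was 0.98. Of the 21, 9 reached 1 RPKM on day 3 alone, so their count could not have come out low in that library. Tk1, thymidine kinase, had 0.0514, 0.0460, 0.0623, 5.76 and 0.473 RPKM. Rrm2, a subunit of ribonucleotide reductase, had 0.104, 0.126, 0.171, 3.78 and 0.331 RPKM, and Mcm5, of the replicative helicase, had 1.31, 1.80, 1.36, 7.90 and 1.86. These 3 had the largest day 3 folds of the list, and each stood near its sham level in the libraries before day 3.

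Of 21 mitosis genes, 13 reached 1 RPKM, all 13 on day 3 alone, which fixes the direction of their folds. Of these 11 were 2-fold higher on day 3 (background 9.04%), with a median fold of 1.75. Ube2c, which helps to degrade cyclins, had 0.0599, 0.134, 0.174, 6.60 and 0.553 RPKM. Cdc20, an activator of the anaphase-promoting complex, had 0.655, 0.676, 0.416, 10.8 and 0.836, and Plk1, a mitotic kinase, had 0.142, 0.237, 0.216, 6.83 and 0.436.

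**Figure D5:**
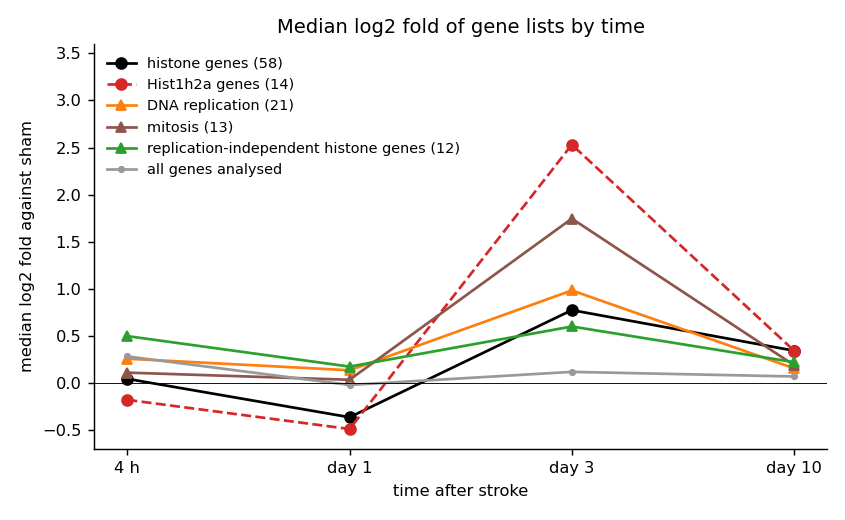
Median log2 fold against sham (vertical axis) at 4 hours and days 1, 3 and 10 (horizontal axis) for the 58 histone genes, the 14 Hist1h2a genes, the DNA replication, mitosis and replication-independent histone lists, and all 12783 genes; numbers in the legend are genes that reached 1 RPKM. The mitosis genes and 9 of the 21 replication genes reached 1 RPKM on day 3 alone, so their peak there follows from the floor. Day 3 medians are 0.77, 2.53, 0.98, 1.75, 0.60 and 0.12 in that order.

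Of 26 listed genes for making and handling histone messages, 16 reached 1 RPKM and 3 of these were 2-fold higher on day 3 (background 9.04%), with a median of 0.05. Asf1b, Chaf1b and Cdk2 reached 1 RPKM on day 3 alone, so 2 of those 3 calls come from genes that had to be highest there. Slbp, the stem-loop binding protein, had 0.626, 1.06, 0.725, 0.736 and 0.542 RPKM, so its day 3 value was close to sham. Asf1b, a histone chaperone, had 0.295, 0.261, 0.240, 3.68 and 0.695 RPKM; Chaf1b, of the assembly factor that loads histones onto new DNA, had 0.0356, 0.0653, 0.0475, 1.16 and 0.142; and Lsm10, a protein of the U7 particle that cuts histone messages, had 5.92, 7.04, 8.04, 13.3 and 8.70. These were the 3 genes past the limit on day 3, all by folds of 1.05 to 1.86; after median-of-ratios scaling 1 stayed past it and the list median was -0.03.

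Other RNAs without a poly(A) tail had a lower median fold on day 3 than the histone genes, -0.38 against 0.77. Of 11 in the table, 0 were 2-fold higher (background 9.04%) or lower (0.618%) on day 3, which with 11 genes is near those shares. At 4 hours 3 were lower (1.09%). Rnu7, the RNA of the U7 particle, had 6.10, 5.27, 7.31, 11.4 and 2.69 RPKM and the largest day 3 fold of this list, 0.81. Rn7s1 and Rn7s2, of the signal recognition particle, had day 3 folds of -0.57 each.

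Levels of cell type marker genes also differed between libraries. The summed RPKM of 6 microglia markers was 141 in sham, 116 at 4 hours, 108 on day 1, 885 on day 3 and 1164 on day 10, and 4 of the 6 were 2-fold higher on day 3 (background 9.04%). That of 6 monocyte and macrophage markers was 29.6, 23.6, 95.3, 341 and 346, and that of 3 neutrophil markers was 11.1, 6.51, 152, 8.51 and 9.76. Markers of striatal projection neurons, the main neurons of the caudate putamen, were all 9 detected at 1 RPKM or more, with sums of 1806, 2319, 901, 1380 and 1543. Within the monocyte and macrophage list the genes did not move alike: Lyz2 made up most of the day 10 sum, while Arg1 had 10.2 RPKM on day 3 and 0.0841 on day 10 (both named after their values were seen). Sums of 4 astrocyte markers were 154, 73.5, 307, 554 and 291, and those of 4 endothelial markers 24.1, 16.9, 19.4, 47.9 and 38.7, both highest on day 3. Single genes made up most of these sums. On day 3 Gfap had 509 RPKM, Cldn5 had 45.7 and, in the microglia list, C1qa had 780. The other astrocyte markers did not move alike: from sham to day 3 Aldh1l1 went from 10.1 to 21.7 RPKM and Slc1a2 from 40.7 to 20.1. Aqp4 was highest on day 10, at 4.30 RPKM. These genes too were named after their values were seen. Choroid plexus markers, of a tissue next to the caudate putamen, summed to 79.1, 738, 305, 20.1 and 0.771. The part of these cell types in the histone values was not tested, and more cells of a type cannot be told apart from more RNA per cell in bulk tissue.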

How the data were processed

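RNA of 5 pooled mouse striatal libraries was measured. The authors deposited 1 RPKM value per gene and library, per the file headers, with a log2 fold and a GFOLD value (a log2 fold shrunk for low counts, setting 0.01) for each pair of libraries. Trimmomatic 0.36, StringTie 1.3.4d, HISAT2 2.1.0 and GRCm38 are named in the submitters' processing notes, without roles; the annotation, strand setting and treatment of multiply mapping reads are not given in the sources used here.

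Folds were computed as log2((RPKM + 1)/(sham RPKM + 1)) over the 12783 genes that reached 1 RPKM in any library. Reads were recovered from RPKM and GENCODE M21 exon lengths: 90.4% to 90.5% of values under 5000 reads came out whole within 0.02 reads, for 42260000 to 48010000 reads per library. This depth gave the exact intervals, which cover counting error only. Libraries were grouped by their labels, each stroke time was compared with sham and with the time before it, and nothing was tested. The summaries were checked on simulated data. Python 3.11.15, pandas 2.3.3 and scipy 1.17.1 were used.

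The genes given in all 5 libraries were the 6 with the highest maximum, the 5 of largest fold each way at each time and the highest of each class, plus the 3 of largest day 3 fold in each other list; genes added outside this rule are said to be so or serve a pair. Members and lists were chosen with earlier results of these data known. Alternatives were another pseudocount, floor, fold limit and 2 scalings; those limited to less shared genes and to the GFOLD value were chosen after seeing the data.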

Additional observations from a re-analysis of the deposited data

How the results depend on the processing

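On day 3 the count of 2-fold higher genes was 17 as reported, 25 with a pseudocount of 0.1, 15 with either scaling and 15 by the authors' deposited GFOLD value, 38 at a 1.5-fold limit and 3 among the 24 genes under 50% shared; the median of 0.77 was 0.94 with a pseudocount of 0.1 and 0.92 with a floor of 5 RPKM. At 4 hours the count of higher genes was 0 with either scaling and 5 at 1.5-fold, the count of lower genes was 2 at 1.5-fold, and the median turned from 0.04 to -0.22 (median-of-ratios) and -0.21 (trimmed mean of M values), and was 0.155 among less shared genes. On day 1 the count of lower genes was 8 with a pseudocount of 0.1, 13 at 1.5-fold, and 0 among less shared genes and by GFOLD; the median was -0.49 with a pseudocount of 0.1 and -0.14 among less shared genes. On day 10 the count of higher genes was 4 with a pseudocount of 0.1 and 15 at 1.5-fold. Changing the limit or the number of genes changes a count by construction. The share over all genes at these other settings is not given here, so these counts have no background beside them. The cause of the other shifts was not tested. Median-of-ratios scaling turned the sign of 10 of 30 single-gene folds at 4 hours, 1 on day 1, 1 on day 10 and 0 on day 3. No paired analysis was possible because each group is 1 library, and for the same reason no library could be left out. Genes with few reads, such as most H3 genes, have wide counting intervals at this depth.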
